A study of Mus musculus with 18 samples.

Results

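Complement and coagulation factors were examined in 18 liver libraries of female mice, as a list of 42 genes given by symbol. Of these, 41 were found in the deposited table of 37620 genes, and Klkb1 (plasma kallikrein) is not analysed here. Enough counts for a test were present for 39. Cfd (complement factor D, or adipsin), with 14 counts over the 18 libraries, and C7, with 78, were too low. No measured value was used to choose the genes, but the list was drawn up with earlier results of these data known.

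Messenger RNA was sequenced from whole flash-frozen liver in 3 groups of 6 libraries. The young group was 7 weeks old, and its labels give no treatment. The old groups were 24 months old by their labels and received either vehicle (saline) or ouabain, a plant glycoside that inhibits the Na,K-ATPase of the cell membrane. The dose was 1 mg/kg, repeated 4 times in a treatment week, with pauses of 2 weeks, during a course of 12 weeks, and the mice were killed 3 days after it ended. The design text describes 16 old mice, and 12 old libraries are analysed here. The sources used here do not say how those were chosen. Age and handling differ together in each comparison with the young mice, and no strain is given in the labels. Nothing beyond the sample titles says that the libraries come from separate animals, so p-values measure the spread between these samples.

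Most plasma proteins of both cascades are made by hepatocytes. Complement is started by the classical route (C1 and C4), the lectin route (mannose-binding lectins and their serine proteases) or the alternative route (factor B, factor D and properdin). All of these cleave C3, after which C5 to C9 assemble a pore, the membrane attack complex. In coagulation, tissue factor or the contact factors lead to thrombin, which converts fibrinogen into fibrin, while antithrombin and protein C restrain the cascade and plasmin dissolves the clot.

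The shallowest library, ouabain replicate 5, had 4201251 counts, and the other 17 had 7527846 to 11113307. Of the 37620 genes, 14226 were tested together. The 41 genes held 3.96% to 5.75% of all counts in a library. The 10 hepatocyte markers found summed to 105690 to 170850 CPM (read counts scaled to a common library size), and the adipocyte markers to 13.5 to 23.1 CPM, with Plin1 and Lep at 0 counts. Levels below are CPM scaled by TMM, which allow 1 gene to be compared between libraries but not 1 gene with another, since they are not divided by gene length.

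With age, 9 of the 39 tested genes changed (edgeR quasi-likelihood test, Benjamini-Hochberg adjusted p below 0.05 over all genes), which is 23.1% against 19.2% of all genes tested. The share called was thus near the background, and the direction was mostly down. Only Cfp (properdin, ENSMUSG00000001128) rose, where 10.9% of all genes rose, and 8 fell, where 8.32% of all genes fell. Those 8 were C8a (ENSMUSG00000035031) and C8b (ENSMUSG00000029656) of the membrane attack complex, Mbl1 (ENSMUSG00000037780), Masp1 (ENSMUSG00000022887) and Masp2 (ENSMUSG00000028979) of the lectin route, Fga (ENSMUSG00000028001) and Fgb (ENSMUSG00000033831) of fibrinogen, and Proc (protein C, ENSMUSG00000024386). The median log2 fold change of the 39 was -0.13, with 27 below 0, against -0.01 over all genes. Of the 10 hepatocyte markers, 8 were likewise below 0 with age, with a median of -0.19 over the 10 and 3 called lower (Ttr, Serpina1a and Ahsg), and their part in the values of the 39 was not tested. Vehicle and young libraries did not overlap for 5 of the 39 genes (7.19% of all genes), all 5 lower. C8a and C8b stood out by size, at 5.21-fold and 4.46-fold lower in old vehicle than in young livers. The size for C8a depended on vehicle replicate 5, without which its log2 fold change was -3.28 in place of -2.38.

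In old livers given ouabain against vehicle, none of the 39 passed in edgeR, against 1.84% of all genes. An unadjusted edgeR p below 0.05 was found for 7 of the 39, and for 2863 of all 14226 genes tested. Other tools did call members here: DESeq2 called C8b and Proc, and limma voom called C8a, C8b and Proc, all of them higher with ouabain. Over all 14226 genes, DESeq2 called 603. Limma voom with quality weights, which called the same 3 members, called 1002. The median log2 fold change of the 39 was 0.02, and no gene of the 39 had groups that did not overlap (2.05% of all genes did). This comparison shares the vehicle libraries with the first, and the third shares the young and the ouabain libraries with the others, so the 3 are not independent. In ouabain livers against young livers none passed in edgeR either, against 1.12% of all genes. There 13 of the 39 had an unadjusted p below 0.05, and 2342 of all 14226 genes did. DESeq2 called 1 gene there (Masp1, lower), and limma voom with quality weights 2 (Masp1 and F9, both lower) and limma voom none. Over all genes, DESeq2 called 466 there and limma voom with quality weights 532. Over the 3 comparisons, 32 of the 39 stayed within 0.5 log2 units of 0.

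**Figure D1:**
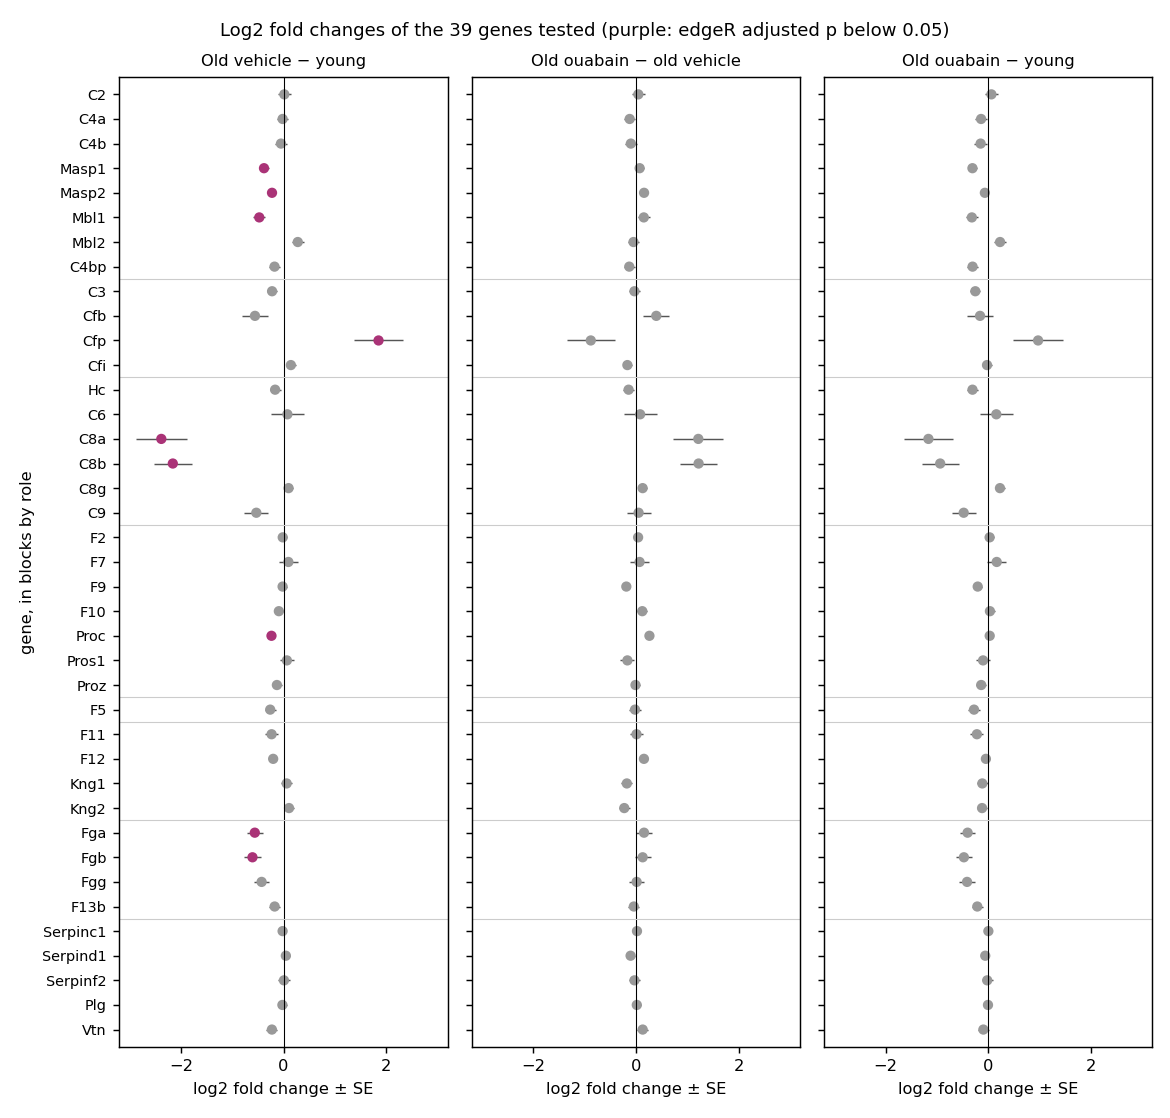
Log2 fold change with its standard error (horizontal axis) for each of the 39 genes tested (rows, in blocks by role), in the 3 comparisons. Purple points have an edgeR adjusted p below 0.05. All 9 purple points are in the left panel, old vehicle against young, and C8a, C8b and Cfp lie farthest from 0.

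Of the terminal pathway, which forms the pore, 6 of 7 genes were tested and 2 fell with age, where 8.32% of all genes fell. C8 is built from 3 chains, each from its own gene: C8a and C8b encode the alpha and beta chains, which are related to C6, C7 and C9, and C8g encodes the gamma chain, a lipocalin. In mice, complement activity through the terminal pathway is known to be higher in males than in females. The promoters of C8a and C8b, the genes with the largest falls, are shown here as the 250 bases before the start of transcription (RefSeq, build GRCm38.p6, 5′ to 3′ on the gene's strand). C8a is at chr4:104876399-104876648 on the minus strand, and C8b at chr4:104766067-104766316 on the plus strand. Capitals mark a match to the motif bound by STAT factors, TTCNNNGAA.
C8a: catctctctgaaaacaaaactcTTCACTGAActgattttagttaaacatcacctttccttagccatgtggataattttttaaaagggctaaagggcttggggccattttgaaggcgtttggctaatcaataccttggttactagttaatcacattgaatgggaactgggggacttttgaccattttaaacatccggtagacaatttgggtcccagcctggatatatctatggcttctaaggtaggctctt
C8b: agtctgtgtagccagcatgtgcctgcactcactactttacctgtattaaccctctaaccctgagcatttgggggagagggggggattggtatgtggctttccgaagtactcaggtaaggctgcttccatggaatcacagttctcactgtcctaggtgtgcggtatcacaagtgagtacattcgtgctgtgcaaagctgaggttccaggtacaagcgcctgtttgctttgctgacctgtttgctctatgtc
The C8a window holds 1 match, which begins 228 bases before the start, and the C8b window holds none. Of 32851 promoter windows of this length, 7.02% hold this motif, on either strand.

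C8a had a lowest, median and highest level of 313, 503 and 673 CPM in young, 27.6, 56.0 and 304 CPM in vehicle, and 137, 219.7 and 263 CPM in ouabain livers. The lowest young library was thus above the highest old vehicle library, vehicle replicate 5, and that library stood alone, since the other 5 vehicle libraries were at 27.6 to 71.1 CPM. C8a fell with age from 475 ± 135 to 91.2 ± 105 CPM (mean ± SD of 6 libraries each). On the log2 scale this was -2.38 (SE 0.50), with an edgeR adjusted p of 0.00365. Ouabain livers were at 212 ± 50.9 CPM, all of them above the vehicle median and below every young library.

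Young livers held 190.3 to 306 CPM of C8b (median 222), vehicle livers 17.9 to 116 (median 36.9) and ouabain livers 75.7 to 166 (median 123). Its 6 vehicle libraries again lay below all young libraries, and replicates 5 and 1 were the highest of them. C8b fell with age by 2.16 on the log2 scale (SE 0.37, edgeR adjusted p = 0.00084). Groups that did not overlap in the lower direction were found for 2.6% of all genes with age. In bulk liver, fewer cells that make an RNA and less of it per cell cannot be told apart.

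Between ouabain and vehicle livers, the edgeR log2 fold change was 1.22 for C8a (SE 0.48, adjusted p = 0.178) and 1.22 for C8b (SE 0.37, adjusted p = 0.0892), so neither passed. These calls rested on vehicle replicate 5. Without it both passed, C8a at 2.11 (adjusted p = 0.0016) and C8b at 1.60 (adjusted p = 0.0235). With limma voom both passed with all libraries, C8a at 1.72 (adjusted p = 0.0325) and C8b at 1.48 (adjusted p = 0.0255). DESeq2 gave C8a an adjusted p of 0.114 and C8b one of 0.0369.

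Ouabain and young livers did not overlap for C8a or C8b, as for 2.19% of all genes in that comparison. The log2 fold changes were -1.16 and -0.94, with edgeR adjusted p of 0.239 and 0.21 when the spread was estimated from all 3 groups. With only the 12 libraries compared, both passed (adjusted p = 0.0126 for C8a and 0.0146 for C8b), and C8a also passed without vehicle replicate 5 (adjusted p = 0.0253).

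The third chain gave other values. Levels of C8g ran from 375 to 503 CPM in young livers (median 407), from 388 to 503 in vehicle livers (median 461) and from 446 to 533 in ouabain livers (median 491). The groups overlapped, and C8g had a log2 fold change with age of 0.10 (edgeR adjusted p = 0.481). Ratios of the chains within a library do not depend on scaling between libraries, and were compared with a two-sided exact permutation test of 6 against 6, whose smallest p is 0.00216. Across 9 pairs of related genes and 3 comparisons, 27 such tests were made and adjusted together, and the pairs were chosen after the values were known. The adjustment does not correct for that choice, so the p-values of these ratios are no evidence independent of the single genes. The log2 ratio of C8a to C8g counts was 0.13 ± 0.38 (SD, n = 6) in young, -2.84 ± 1.32 in vehicle and -1.25 ± 0.40 in ouabain livers. Vehicle and young livers did not overlap in it (exact p = 0.00216, adjusted p = 0.00974), nor did ouabain and young livers (the same p), while ouabain and vehicle livers had an exact p of 0.0238 (adjusted p = 0.0536). For C8b to C8g the same 2 comparisons with young livers passed (adjusted p = 0.00974 each) and ouabain against vehicle did not (adjusted p = 0.0629). The ratio of C8a to C8b did not pass in any comparison, and with age its exact p was 0.212. It ran from -0.60 to 1.39 on the log2 scale in vehicle livers, against 0.72 to 1.33 in young livers.

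C9, which polymerises into the wall of the pore, did not pass in edgeR. C9 had a lowest, median and highest level of 264, 315 and 399 CPM in young, 136, 179 and 352 CPM in vehicle, and 136, 249.9 and 282 CPM in ouabain livers. Vehicle replicates 1 and 5 were within the young range and the other 4 were below it. The log2 fold change with age was -0.53 (edgeR adjusted p = 0.128), and it passed without vehicle replicate 1, without vehicle replicate 5 and in limma voom with quality weights. Hc, which encodes C5, was at 865 ± 118, 772 ± 114 and 699.6 ± 68.6 CPM in young, vehicle and ouabain livers. C6 was at 21.6 ± 8.56, 22.8 ± 12.2 and 24.0 ± 6.24 CPM. Neither passed, and the groups overlapped for both.

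**Figure D2:**
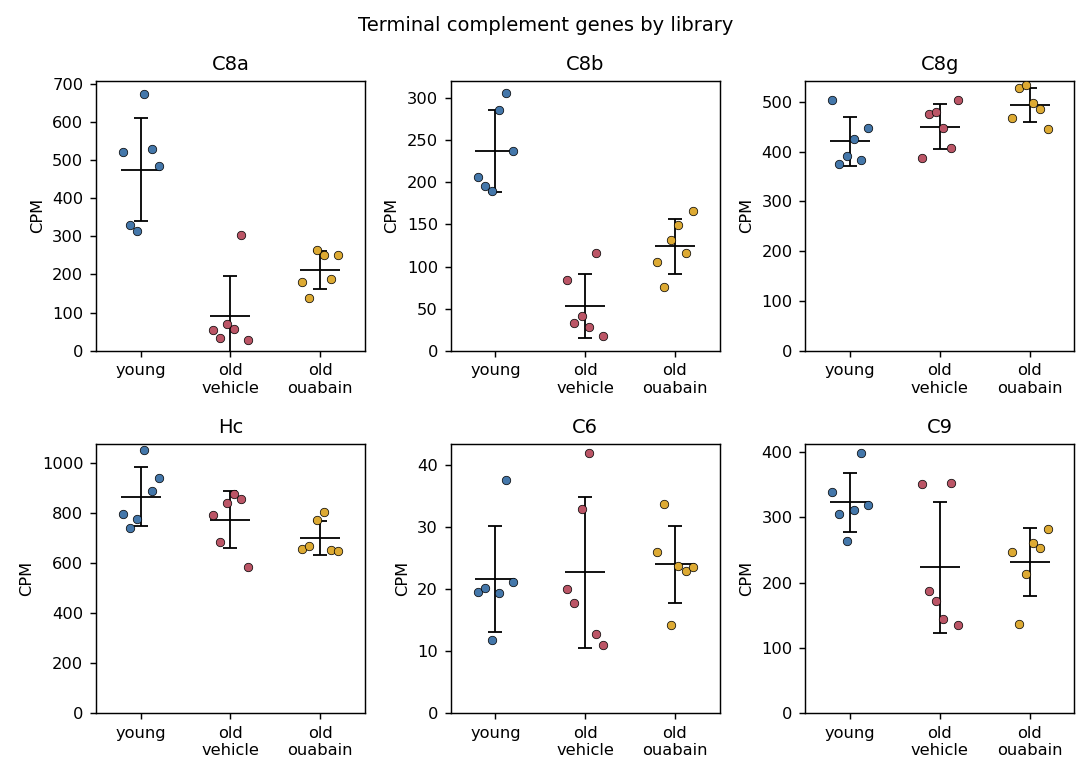
CPM (vertical axes, from 0) of 6 terminal complement genes in each library of the 3 groups, with mean and SD as bars; the lower bar of C8a in old vehicle livers is cut at 0. C8a and C8b are high in young livers, lowest in 5 of the 6 vehicle libraries for C8a, and intermediate in ouabain livers, whereas C8g overlaps between groups.

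A list of genes with higher expression in male than in female liver was also examined. It was chosen with earlier results of these data known, so its shares against all genes are no independent evidence. Its lowest log2 fold change with age (-9.21) and its highest with ouabain against vehicle (8.65) were also the extremes of all genes tested. Of its 12 tested genes, 10 fell and 1 rose with age, where 8.32% of all genes fell and 10.9% rose. With ouabain against vehicle 8 rose, where 0.991% of all genes rose. The list summed to 1540 to 2789 CPM in young, 514 to 993 CPM in vehicle and 1154 to 1695 CPM in ouabain livers. Vehicle livers did not overlap with either other group in this sum. Vehicle replicate 5, the highest of its group for C8a, was at 666 CPM of this sum, within the range of its group. The part of these genes in the C8a and C8b values was not tested.

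At the start of complement, 8 genes were tested, and 3 of the lectin route fell with age, where 8.32% of all genes fell. Mannose-binding lectins bind sugars on microbes, and the proteases Masp1 and Masp2 that travel with them cleave C4 and C2. Young livers held 138 to 258 CPM of Mbl1 (median 196), vehicle livers 125 to 173 (median 146) and ouabain livers 149 to 175 (median 163). All 6 vehicle libraries were below the young median, though the groups overlapped. Mbl1 fell by 0.47 on the log2 scale (SE 0.12, edgeR adjusted p = 0.00703). The other lectin, Mbl2, was at 649 ± 58.0, 787 ± 148 and 762 ± 93.0 CPM, with a log2 fold change with age of 0.28 that did not pass (edgeR adjusted p = 0.0947). The log2 ratio of Mbl1 to Mbl2 counts was lower in vehicle than in young livers by 0.72 (exact p = 0.0108, adjusted p = 0.0292) and lower in ouabain than in young livers by 0.52 (adjusted p = 0.0292). Ouabain and vehicle livers did not differ past the threshold in it (adjusted p = 0.426).

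Levels of Masp1 ran from 119.9 to 162 CPM in young livers (median 151), from 97.7 to 136 in vehicle livers (median 111) and from 106 to 129.6 in ouabain livers (median 122). Masp1 fell with age by 0.38 on the log2 scale (SE 0.09, edgeR adjusted p = 0.00485). Ouabain livers were close to vehicle livers, at a log2 fold change of 0.07, and against young livers Masp1 was at -0.31 (adjusted p = 0.096). Masp2 had a lowest, median and highest level of 202, 220.1 and 240.2 CPM in young, 174, 194 and 199 CPM in vehicle, and 193, 212 and 224 CPM in ouabain livers. Masp2 was below all young libraries in the 6 vehicle libraries and fell by 0.22 (SE 0.07, adjusted p = 0.0207), a call lost without vehicle replicate 2 (adjusted p = 0.056). It passed in 8 of 12 other settings and was also lost with no filter on low counts (edgeR adjusted p = 0.0516), with the 12 libraries compared alone (0.0653), without vehicle replicate 4 and ouabain replicate 5 (0.0555) and with thinned counts (0.0655). In an annotation of another build (GENCODE M21, GRCm38), 54.9% of its exon bases are also exon of Tardbp on the opposite strand, and Tardbp fell by 0.21 (edgeR adjusted p = 0.0375). The sources used here do not say whether counting used strand, so reads of the 2 genes may not be separated.

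C2, the C4 genes and C4bp, which encodes a binding protein that restrains C4, did not pass in any comparison. C4a, known in mice as sex-limited protein, and C4b are near-identical copies, so reads may be divided between them with error. Their log2 ratio was -2.16 ± 0.033 in young, -2.13 ± 0.048 in vehicle and -2.15 ± 0.043 in ouabain livers (SD, n = 6 each), and their summed counts gave a log2 fold change with age of -0.04.

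In the C3 and alternative pathway group 1 of the 4 tested genes, Cfp, rose with age and none fell. Of all genes tested, 10.9% rose and 8.32% fell with age. C3, on which all routes meet, was at 9827 ± 865, 8417 ± 1037 and 8256 ± 955 CPM and did not pass (log2 fold change with age -0.22, edgeR adjusted p = 0.124). Cfi, a protease that inactivates C3b, had a log2 fold change of 0.14. Cfb, the protease precursor of the alternative route, was at 2.24 ± 0.726, 1.51 ± 0.407 and 1.96 ± 0.647 CPM. In the GRCm38 annotation 79.5% of its exon bases, and 42.8% of those of C2, also belong to a readthrough gene, Gm20547, which had 0 counts in all 18 libraries. The sources used here do not say how reads in shared bases were counted, and the Cfb and C2 levels carry that limit.

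Properdin, which stabilises the enzyme that cleaves C3, is made largely by myeloid cells. Young livers held 20.1 to 34.7 CPM of Cfp (median 23.6), vehicle livers 30.1 to 279 (median 66.8) and ouabain livers 33.1 to 76.8 (median 42.9). All 6 vehicle libraries were above the young median, with vehicle replicate 4 far above the rest. Cfp rose from 26.4 ± 6.61 to 94.98 ± 94.0 CPM, or by 1.85 on the log2 scale (SE 0.48, edgeR adjusted p = 0.0139). Without vehicle replicate 4 the log2 fold change was 1.15 and still passed (adjusted p = 0.0275). Against vehicle, ouabain livers were at -0.88 (adjusted p = 0.304), and at -0.18 without vehicle replicate 4.

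Most myeloid markers also rose with age, where 10.9% of all genes rose. Of 10 macrophage markers, 8 rose with age and none was at 0. With ouabain against vehicle 1 of them (Ccr2) fell, where 0.851% of all genes fell. The 10 markers summed to 244 to 358 CPM in young, 463 to 1809 CPM in vehicle (highest in replicate 4) and 342 to 978 CPM in ouabain livers. Of 6 tested neutrophil markers out of 8, 5 rose with age and none passed with ouabain against vehicle. Their sums were 6.56 to 14.2, 17.9 to 73.5 and 17.1 to 29.7 CPM. The part of these cells in the Cfp values was not tested.

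Fibrinogen is a dimer of 3 chains from Fga, Fgb and Fgg, which lie next to each other in the genome and are induced together in the acute phase response through interleukin 6. The promoters of the 3 genes are shown because the same young libraries were highest for all 3 RNAs. How closely the 3 RNAs varied together was not computed. The windows are from RefSeq (GRCm38.p6, 250 bases before the start, on the gene's strand). Fga is at chr3:83025903-83026152 (plus), Fgb at chr3:83049864-83050113 (minus) and Fgg at chr3:83007474-83007723 (plus). Capitals mark matches to the STAT motif TTCNNNGAA, the C/EBP motif TTGCNNAA and the interleukin 6 response element CTGGGAA, each searched on both strands.
Fga: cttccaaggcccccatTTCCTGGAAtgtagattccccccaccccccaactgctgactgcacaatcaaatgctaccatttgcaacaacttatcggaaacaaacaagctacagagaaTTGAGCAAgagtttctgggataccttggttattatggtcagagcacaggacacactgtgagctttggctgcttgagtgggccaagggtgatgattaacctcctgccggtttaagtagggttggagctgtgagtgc
Fgb: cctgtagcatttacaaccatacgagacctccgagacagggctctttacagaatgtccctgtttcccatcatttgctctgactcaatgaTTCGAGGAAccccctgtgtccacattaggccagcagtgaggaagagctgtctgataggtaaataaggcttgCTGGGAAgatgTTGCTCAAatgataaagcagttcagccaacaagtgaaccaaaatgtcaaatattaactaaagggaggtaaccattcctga
Fgg: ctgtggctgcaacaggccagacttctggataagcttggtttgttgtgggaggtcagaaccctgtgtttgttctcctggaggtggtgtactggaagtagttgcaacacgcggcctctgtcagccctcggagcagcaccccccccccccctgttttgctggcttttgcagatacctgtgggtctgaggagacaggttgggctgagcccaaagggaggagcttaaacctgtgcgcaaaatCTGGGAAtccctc
Fga holds a STAT and a C/EBP match, 234 and 135 bases before the start. Fgb holds all 3, at 162, 80 and 91 bases, and Fgg the interleukin 6 element at 13 bases, with no matches overlapping each other. Of the 33 promoter windows found for 32 of the 42 genes, 21.2% held the STAT motif, 21.2% the C/EBP motif and 15.2% the interleukin 6 element, against 7.02%, 9.56% and 9.1% of all 32851 windows. In C7, F9 and Masp2 the STAT and interleukin 6 matches overlap, so those are not separate. These matches describe letters and no binding was measured.

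Levels of Fga ran from 4189 to 8151 CPM in young livers (median 5155), from 3583 to 4366 in vehicle livers (median 3694) and from 3273 to 6160.4 in ouabain livers (median 4110.4). Fgb had a lowest, median and highest level of 4244, 4934 and 8451 CPM in young, 3409.5, 3841 and 4109 CPM in vehicle, and 3205, 4004 and 5732 CPM in ouabain livers. The vehicle libraries were the most alike, while young replicates 4 and 1 were highest for every chain. Fga fell with age by 0.56 on the log2 scale (SE 0.15, edgeR adjusted p = 0.0124), and Fgb by 0.61 (SE 0.16, adjusted p = 0.00945) with no overlap. Fgg, at 4512 ± 1325, 3355 ± 219 and 3390.1 ± 657 CPM, missed the threshold in edgeR (log2 fold change -0.43, adjusted p = 0.0549). Fgg was called by DESeq2, with the replicate number as a block, with a surrogate variable, and in edgeR without young replicate 2, young replicate 3 or ouabain replicate 4. F13b, a carrier of the enzyme that crosslinks fibrin, had a log2 fold change of -0.17 (adjusted p = 0.271).

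The fibrinogen calls were lost without these 2 young libraries. They had the highest sums of 16 other acute phase genes among young livers, at 20790 and 19502 CPM against 7931 to 12233 CPM in the other 4. Vehicle livers reached 10360 to 20385 CPM of that sum and ouabain livers 9390 to 17805 CPM, so the groups overlapped. The part of an acute phase response in the fibrinogen values was not tested. Without young replicates 1 and 4, a choice made after the values were seen, Fga was at -0.35 (edgeR adjusted p = 0.0795) and Fgb at -0.33 (adjusted p = 0.0769). Mbl1 (adjusted p = 0.0501) and Proc (adjusted p = 0.059) then did not pass either, F5 and F13b did, and 7 of the 39 genes were called in all.

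In ouabain livers the chains were at log2 fold changes against vehicle of 0.16 for Fga, 0.13 for Fgb and 0.01 for Fgg, none past the threshold (lowest edgeR adjusted p 0.589). The balance of the chains differed more finely. The log2 ratio of Fgb to Fgg counts was 0.35 ± 0.027 in young, 0.17 ± 0.061 in vehicle and 0.28 ± 0.04 in ouabain livers (SD, n = 6 each). Vehicle and young livers did not overlap (exact p = 0.00216, adjusted p = 0.00974), nor did ouabain and young livers (adjusted p = 0.00974), and all 6 ouabain libraries were above the vehicle median (exact p = 0.00866, adjusted p = 0.0292). For Fga to Fgg the ratio was higher in ouabain than in vehicle livers by 0.13 (exact p = 0.00649, adjusted p = 0.025) and lower in vehicle than in young livers by 0.15 (adjusted p = 0.0536). The largest of these ratio differences, Fgb to Fgg with age, is a factor of 0.882. In the GRCm38 annotation 5.5% of the exon bases of Fgg are also exon of Gm30097 on the opposite strand. That gene has no row in the count table, and the ratios to Fgg carry that limit. Fga to Fgb did not pass in any comparison.

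**Figure D3:**
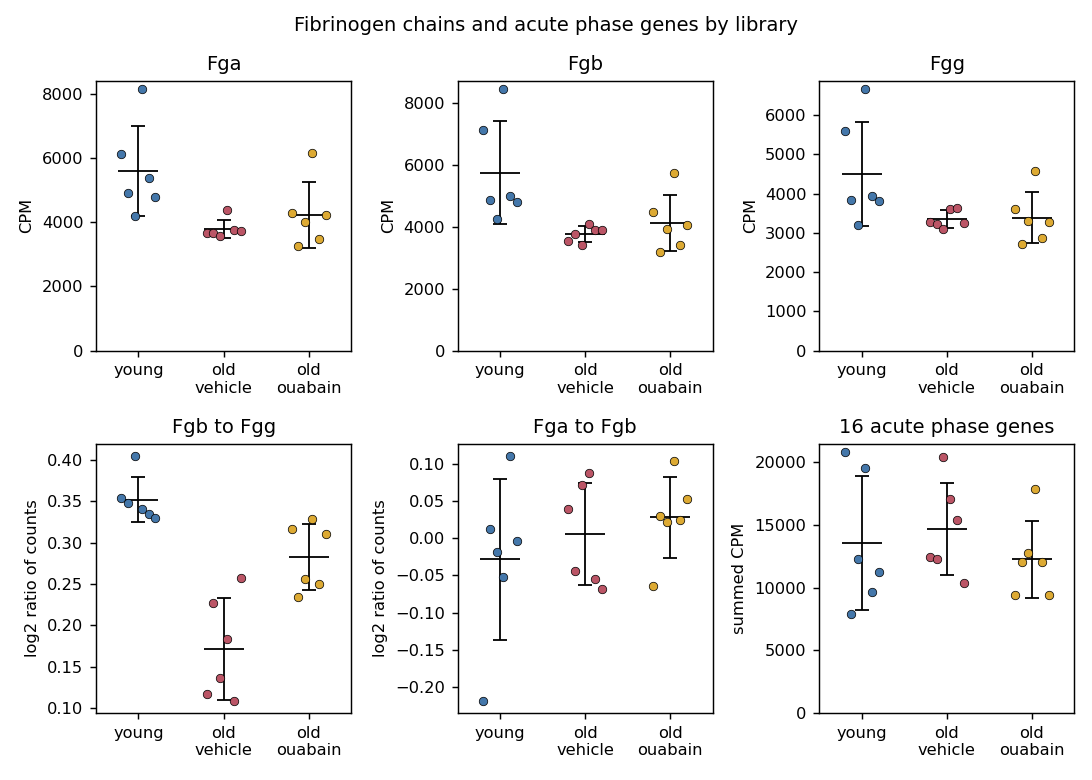
Upper row, CPM of the 3 fibrinogen chains in each library by group, with mean and SD, on axes from 0. Lower row, log2 ratios of counts within a library (axes not from 0) and the summed CPM of 16 acute phase genes. Young replicates 1 and 4 are highest for each chain and for the acute phase sum of their group, and the ratio of Fgb to Fgg separates young from vehicle libraries.

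Of the 7 vitamin K-dependent factors, which need a carboxylation to bind membranes, 1 fell with age, where 8.32% of all genes fell. Proc encodes protein C, an anticoagulant that inactivates factors V and VIII. Young livers held 509 to 569.9 CPM of Proc (median 518), vehicle livers 415 to 513 (median 431) and ouabain livers 509 to 584 (median 534). Vehicle replicate 6, at 513 CPM, lay among the young and ouabain libraries, and the other 5 vehicle libraries lay below all of those. Proc fell with age by 0.24 on the log2 scale (SE 0.07, edgeR adjusted p = 0.0257), a call lost without vehicle replicate 2 or 3. It passed in 8 of 12 other settings and was also lost with no filter on low counts (edgeR adjusted p = 0.0601), with the 12 libraries compared alone (0.082), with thinned counts (0.0554) and without young replicates 1 and 4. Ouabain livers were at 0.26 against vehicle (SE 0.07, adjusted p = 0.0605), with all 6 above the vehicle median. That value passed without vehicle replicate 6 or young replicate 1, and with DESeq2 (adjusted p = 0.0018), limma voom (0.0449) and limma voom with quality weights (0.0092). Against young livers it was at 0.03.

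The other vitamin K-dependent genes showed smaller differences. F2, the precursor of thrombin, was at 1948 ± 132, 1927 ± 158 and 1985 ± 114 CPM. Log2 fold changes with age were 0.09 for F7, -0.02 for F9, -0.09 for F10, 0.07 for Pros1 (protein S) and -0.13 for Proz (protein Z). F9 had the lowest unadjusted p of these against vehicle in ouabain livers (0.0262, edgeR adjusted p = 0.187), at -0.19. Levels of F5 ran from 286 to 514 CPM in young livers (median 452), from 342 to 391 in vehicle livers (median 369) and from 319 to 392 in ouabain livers (median 372). F5, the cofactor of factor X, had a log2 fold change of -0.26 (adjusted p = 0.101), with young replicate 1 the lowest of its group, and passed without that library and in limma voom with quality weights.

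In the contact system, which starts coagulation on charged surfaces, none of the 4 tested genes passed in edgeR. Kng1 had a lowest, median and highest level of 2058, 2418 and 2936 CPM in young, 2143, 2440.1 and 3081 CPM in vehicle, and 1995, 2224 and 2533 CPM in ouabain livers. Kng1 and Kng2 encode kininogens, and their log2 fold changes with age were 0.06 and 0.11. F12 was lower in all 6 vehicle libraries than in any young library (385 ± 12.1 against 443 ± 18.9 CPM) but missed the threshold (log2 fold change -0.20, edgeR adjusted p = 0.0643). DESeq2, limma voom with quality weights and the fit with a surrogate variable did call F12, as did edgeR without ouabain replicate 1. F11 had a log2 fold change of -0.23.

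Of the inhibitors and fibrinolytic genes, none of 5 passed the threshold in any comparison in edgeR. Young livers held 2791 to 3404 CPM of Plg (median 3133), vehicle livers 2712 to 3605 (median 3085) and ouabain livers 2987 to 3265 (median 3111). Plg, the precursor of plasmin, had log2 fold changes of -0.02, 0.02 and -0.0045 in the 3 comparisons (SE 0.08 each). Serpinc1 (antithrombin) was at 2119.7 ± 132, 2093 ± 134 and 2124 ± 47.8 CPM. Serpind1 (heparin cofactor II) and Serpinf2 (antiplasmin) had log2 fold changes with age of 0.05 and 0.01. Vtn, vitronectin, which also blocks the membrane attack complex, was at -0.23 (edgeR adjusted p = 0.148) and was called with a surrogate variable. By the same annotation Serpinc1 shares 34.4% of its exon bases with Zbtb37 and Plg 11.3% with Slc22a3.

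Other genes of both pathways, a list of 64 of which 52 were tested, gave 16 rises and 10 falls with age. Of all genes tested, 10.9% rose and 8.32% fell. Among 7 complement receptors 6 rose. For all 6, vehicle libraries lay above every young library, as for 4.59% of all genes. Itgb2, the shared chain of complement receptors 3 and 4, rose from 4.90 ± 0.899 to 21.5 ± 11.9 CPM (log2 fold change 2.12, edgeR adjusted p = 0.000263). Its partners Itgam and Itgax rose by 1.96 and 2.06, the C3a receptor C3ar1 by 1.89, and Vsig4, a C3b receptor of resident liver macrophages, by 1.87 (adjusted p of at most 0.00439). C1q, the recognition part of C1, is made by macrophages, and C1qa and C1qc rose by 1.54 and 1.60 (adjusted p = 0.00604 and 0.00356). Plau, the urokinase that activates plasminogen, rose by 1.83 (adjusted p = 0.000923). The macrophage marker sums given with Cfp were likewise higher in vehicle than in young livers, and their part in these values was not tested.

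The falls were smaller, between -0.67 and -0.24 on the log2 scale. They included Cfhr2, a complement regulator (-0.32, edgeR adjusted p = 0.0108). Ggcx, the carboxylase of the vitamin K-dependent factors, fell by 0.39 with no overlap (adjusted p = 0.000702), and F3, tissue factor, fell by 0.67 (adjusted p = 0.0131), both singled out after their values were seen.

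With ouabain against vehicle, 1 of the 52 fell and none rose, where 0.851% of all genes fell and 0.991% rose. Levels of Itgax ran from 0.499 to 1.49 CPM in young livers (median 1.05), from 2.97 to 7.39 in vehicle livers (median 3.79) and from 1.42 to 2.32 in ouabain livers (median 1.81). The edgeR log2 fold change of Itgax was -1.25 (SE 0.24, adjusted p = 0.0138), and the groups did not overlap, as for 0.928% of all genes in that direction. In ouabain against young livers 3 of the 52 passed, 1 higher and 2 lower, where 0.738% of all genes were higher and 0.387% lower. Among them, Cd59b, an inhibitor of the membrane attack complex, was higher by 0.76 (edgeR adjusted p = 0.0258), and Cfhr2 was at -0.40 (adjusted p = 0.0241). C1qa, C1qc and C3ar1 had means in ouabain livers between those of the other groups, and none of them passed against vehicle or young livers.

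**Figure D4:**
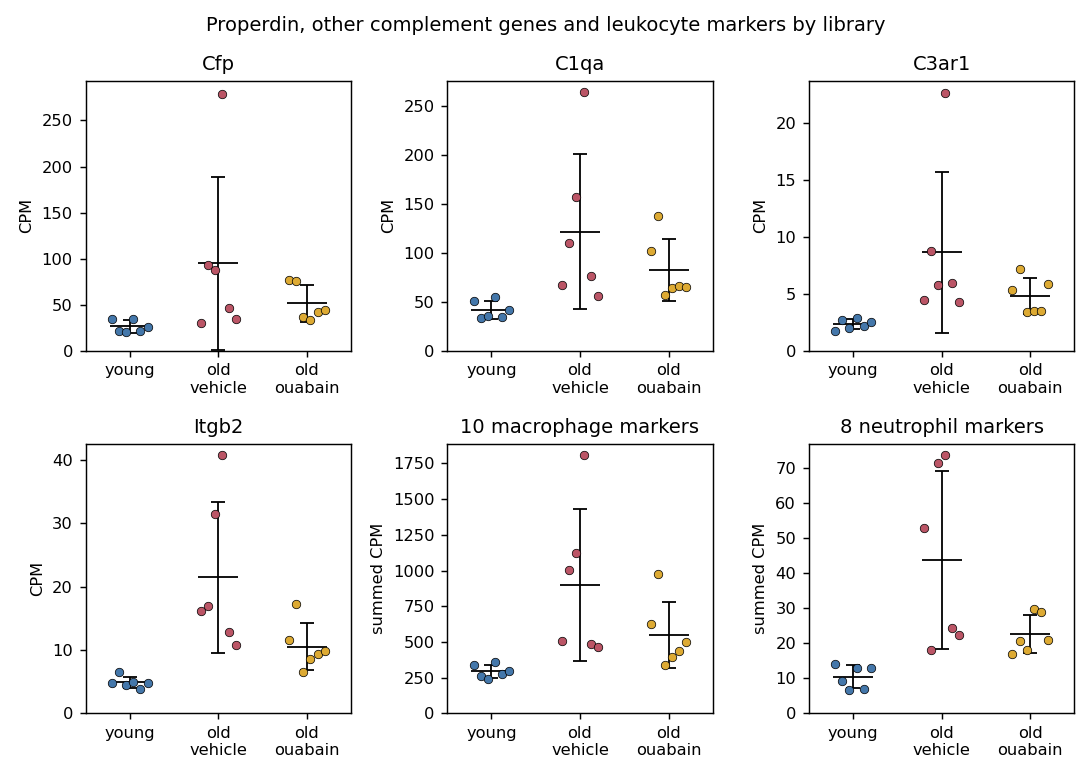
CPM of Cfp, C1qa, C3ar1 and Itgb2 in each library by group, and the summed CPM of 10 macrophage and 8 neutrophil markers, with mean and SD, on axes from 0. Vehicle replicate 4 is the highest library for Cfp, C1qa, C3ar1, Itgb2 and both sums, and young libraries are the lowest group throughout.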

How the data were processed

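Liver RNA in 18 libraries was analysed from 1 table of raw read counts per gene that the authors deposited, not normalized. Per the submitters' processing notes, TopHat2 2.0.11, featureCounts and the mouse build mm9 were used. The strand setting, annotation release and handling of shared reads are not stated in the sources used here. Columns were matched to samples by title. Symbols were found for 32897 identifiers, and the rest held 1.46% of the counts.

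Counts were analysed with edgeR 4.0.16 in R 4.3.3. The edgeR filter (minimum count 10) kept 14226 genes, which were scaled with TMM factors. All 18 libraries entered 1 quasi-likelihood fit (robust, two-sided), with Benjamini-Hochberg adjusted p below 0.05 over all genes as the threshold. CPM values are counts scaled to a common total with TMM factors. The SE of a log2 fold change is the fold change over the square root of F. Library pairs within a group had a chi-square of 5.31 to 58.1 per gene, above the value of 1 of pure sampling noise, and none was treated as a repeat. Counting intervals and limits cover counting error only, and none is printed.

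The genes and lists were chosen with earlier results of these data known. Genes given in full are those that passed in a comparison and, in a role without one, that with the highest mean count (F5, Kng1 and Plg). Other pathway genes that passed are named up to the 8 largest changes per comparison. Further genes and all ratio pairs were chosen after their values were seen. Some pathway genes are not reported here.

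Alternatives were relative log expression size factors, no filter, 1 CPM in 6 libraries, DESeq2 1.42.0, limma 3.58.1 voom with and without quality weights, the 12 libraries compared, a replicate block, thinned counts, 1 surrogate variable (sva 3.50.0) and leaving out libraries. Tested on simulated data of 14226 genes, the fit recovered 80% of 100 genes changed 2-fold for old vehicle versus young. It recovered 72% for old ouabain versus old vehicle and 78% for old ouabain versus young. Of its calls, 6.35%, 4.07% and 3.33%, in that order, were genes left unchanged in the simulation. Changes smaller than 2-fold were not simulated. The simulation gave a gene the same spread in every group and added no libraries that stand apart. Its shares thus do not cover genes such as C8a and Cfp, where a single vehicle library stood apart.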

Additional observations from a re-analysis of the deposited data

Results flagged for a closer look

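For each of the 39 tested genes and each group of 6 libraries, the gap of the highest or lowest library to its nearest neighbour was set against the group's range (Dixon's test at 95%). Of 117 groups, 8 (6.84%) had a library that stood apart, where chance gives about 1 in 20, so their number is near what chance gives.

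In vehicle livers, C8a in replicate 5 was at 303.7 CPM, with the other 5 at 27.6 to 71.1 CPM. Cfp in replicate 4 was at 278.9 CPM, with the others at 30.1 to 93.2 CPM. Fga was at 4366 CPM in replicate 4, against 3583 to 3770 CPM in the others. Proz in replicate 1 was low, at 172 CPM, with the others at 203 to 216 CPM.

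In young livers, Proc was at 569.9 CPM in replicate 1, against 509 to 526 CPM in the others. C6 in replicate 5 was at 37.71 CPM, with the others at 11.8 to 21.2 CPM. Cfb was at 3.617 CPM in replicate 6, against 1.55 to 2.29 CPM in the others. In ouabain livers, Fga in replicate 4 was at 6160 CPM, with the others at 3273 to 4287 CPM.

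Values without vehicle replicates 4 and 5 are given in the text beside Cfp, C8a and C8b.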

How the results depend on the processing

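Under the 12 other settings and 18 fits that each left out 1 library, 7 to 12 of the 39 genes were called with age against 9, and C8a, C8b, Masp1 and Cfp passed in all of them. Over all genes, 2733 were called with age, 1828 to 3209 in the other settings and 2085 to 3061 leaving out 1 library. The fit with a replicate block called 10 with age, none for ouabain against vehicle and none for ouabain against young. The replicate numbers did not pair libraries, since same-numbered libraries correlated at -0.136 to 0.158 in their deviations from the group means, and 3 of 18 correlations were over 0.1. Under the block 71 genes in all were called for ouabain against young, against 160.

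For ouabain against vehicle, where no member passed, DESeq2 called 2 members, voom 3, voom with quality weights 3, and leaving out 1 library 0 to 2. Over all genes, 262 were called, 603 with DESeq2, 1002 with quality weights, 85 without vehicle replicate 4 and ouabain replicate 5, and 69 to 642 leaving out 1 library.
For ouabain against young, where no member passed, DESeq2 called 1 member, quality weights 2, the 12 libraries alone 2, dropping young replicates 1 and 4 (chosen after seeing the data) 2, and leaving out 1 library 0 to 2. Over all genes, the counts were 466, 532, 333 and 587 in those settings, 103 without vehicle replicate 4 and ouabain replicate 5, 87 with thinned counts, and 51 to 612 leaving out 1 library.

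The values that changed sign were near 0 and called in no setting. F5 for ouabain against vehicle (-0.02) was at 0.0053 with quality weights, 0.0147 without vehicle replicate 4 and ouabain replicate 5, 0.0236 with a surrogate variable, and -0.0433 to 0.0123 leaving out 1 library. Plg with age was at 0.0388 without young replicates 1 and 4 and -0.0737 to 0.0168 leaving out 1 library. Plg for ouabain against vehicle was at -0.0043 with a surrogate variable and -0.0236 to 0.0684 leaving out 1 library, and against young at 0.0084 with quality weights, 0.0562 without young replicates 1 and 4 and -0.0400 to 0.0202 leaving out 1 library. Kng1 with age was at -0.00038 to 0.122 leaving out 1 library. Of the ratios, C4a to C4b (-0.0035 to 0.0253), Kng1 to Kng2 (-0.0156 to 0.0168) and Fga to Fgg (-0.0508 to 0.0114) for ouabain against young and Fga to Fgb with age (-0.0045 to 0.0616) crossed 0.

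The C8b to C8g ratio for ouabain against vehicle had an exact p above 0.05 in 6 of 12 such fits. Low counts limit Cfd, C7 and Cfb. The cause of these shifts was not tested.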

Other observations

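Platelet genes were also counted, since platelets carry coagulation factors. Of 7 platelet and megakaryocyte markers, 3 were tested and Gp6 was at 0 counts. Pf4 and Ppbp rose with age, where 10.9% of all genes rose. The 7 summed to 3.46 to 6.52 CPM in young, 7.99 to 27.8 CPM in vehicle and 6.2 to 12.1 CPM in ouabain livers. Their part in the coagulation values was not tested.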
